A study of Arabidopsis thaliana with 9 samples.

Results

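Ethidium bromide (EtBr) was set directly against doxycycline in seedlings of Arabidopsis thaliana, using the genes listed in both deposited tables, 24319 of 29071 genes in all. The comparison took 6 of the 9 libraries of the series. The 3 EtBr libraries came from wild-type Col-0 seedlings given EtBr, the 3 doxycycline libraries from Col-0 seedlings given doxycycline, and the 3 water libraries, which served as the untreated level, from Col-0 seedlings given water. All were whole seedlings, 7 days old, grown on Murashige and Skoog medium. The labels give neither dose nor length of treatment, so a difference between the compounds holds only for the conditions used. The series is titled for the unfolded protein response of mitochondria. Separate cultures are not stated for the libraries of a group, so the p-values cover the spread among these libraries, and that spread may be technical.

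EtBr is a planar dye that slides between the base pairs of DNA, and it has long been used to disturb mitochondrial DNA. Doxycycline, a tetracycline, stops protein synthesis on ribosomes of bacterial type, which plant mitochondria and plastids contain. Impaired plant mitochondria signal to the nucleus, where membrane-bound NAC transcription factors such as ANAC017 and ANAC013 switch on alternative oxidase, chaperones and other genes of the mitochondrial dysfunction stimulon. Levels are given as normalized reads, the reads of a gene over the size factor of its library (median ratio, 9 libraries together). Differences are EtBr minus doxycycline on the log2(normalized reads + 1) scale, as estimate ± SE.

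EtBr and doxycycline left the seedlings with widely different RNA. Of 24319 genes, 7890 (32.4%) were higher with EtBr and 6038 (24.8%) lower, at a limma adjusted p under 0.05 with Benjamini-Hochberg adjustment, or 57.3% in all. The 3 EtBr libraries lay above the 3 doxycycline libraries for 36.4% of genes and below them for 28.3%. Large differences were mostly rises: 1700 genes were higher by at least 3 on the log2 scale and 253 lower, and beyond 5 the counts were 359 and 14. The median difference over all genes was 0.14, and scaling by library totals in place of size factors would add 0.13 to every difference.

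Libraries held 17724015 to 20248565 reads on the shared genes. On the first principal component, which carried 70.3% of the variance, EtBr libraries lay at 151 to 165, doxycycline libraries at -74.5 to -65.6 and water libraries at -93.3 to -77.0. A read was found for 23293 to 23743 of the shared genes in EtBr libraries, against 22424 to 22495 in doxycycline libraries and 22379 to 22891 in water libraries. Reads of near-identical copies, and of overlapping or antisense genes, may not be told apart, since the sources used here do not give strand.

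**Figure D1:**
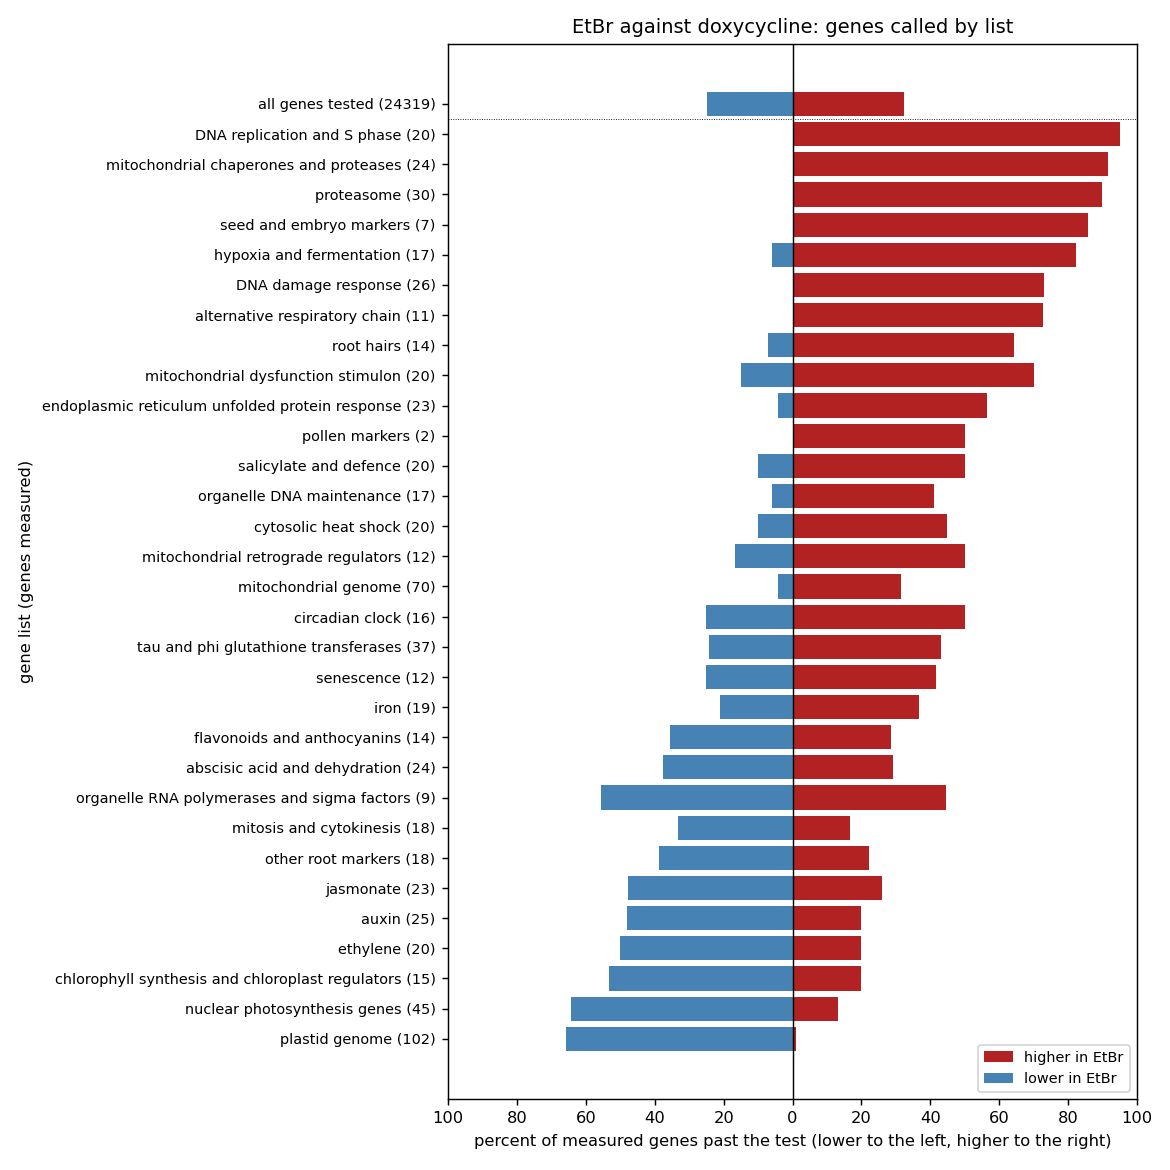
Percent of the measured genes of each list that were higher with EtBr (red, right) or lower (blue, left) than with doxycycline, with the number measured in parentheses and all genes at the top. S phase genes (19 of 20) and mitochondrial chaperones and proteases (22 of 24) stand at the high end, nuclear photosynthesis genes (29 of 45 lower) and the plastid genome (67 of 102 lower) at the low end.

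Genes of the mitochondrial dysfunction stimulon, which were far above water under both compounds, were mostly higher still with EtBr. Of these, 14 of 20 measured members were higher, 3 were lower and 3 did not pass the test, and the median difference was 0.83, against 0.14 over all genes. Their median stood 4.27 above water with EtBr and 3.58 above water with doxycycline, 2 values that share the water libraries. UPOX, named for its rise under oxidative stress, encodes a mitochondrial protein and had 9448, 11725 and 14873 in EtBr libraries, against 3079.6, 2732 and 3536 in doxycycline libraries and 24.7, 64.3 and 43.6 in water libraries (normalized reads). Every EtBr library exceeded every doxycycline library, with a log2 difference of 1.93 ± 0.19 (limma adjusted p = 0.00028). AOX1A, the main alternative oxidase gene of the inner mitochondrial membrane, had 12822, 13678 and 18317 in EtBr libraries, against 6193, 7460.2 and 9700.0 in doxycycline libraries and 392, 668 and 434 in water libraries. The 2 treated groups did not overlap, and the difference was 0.95 ± 0.21 (limma adjusted p = 0.0090). ANAC013, itself a NAC regulator of this response, had 4082, 3379.7 and 4460.0 in EtBr libraries, against 1457, 1328 and 1664 in doxycycline libraries and 120.2, 96.0 and 118 in water libraries, with a log2 difference of 1.42 ± 0.14 (limma adjusted p = 0.00027).

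The promoters of UPOX and HSP23.5 are shown because both genes were higher with EtBr and both carry the mitochondrial dysfunction motif, to which ANAC013 is known to bind and which was searched as CTTG, any 5 bases, CA, any base and G. The 250 bases before the gene start were read from RefSeq assembly TAIR10.1, 5′ to 3′ along the gene, with the match in capitals. UPOX lies at chr2:9254128-9254377, plus strand, and HSP23.5 at chr5:20890913-20891162, plus strand.
UPOX: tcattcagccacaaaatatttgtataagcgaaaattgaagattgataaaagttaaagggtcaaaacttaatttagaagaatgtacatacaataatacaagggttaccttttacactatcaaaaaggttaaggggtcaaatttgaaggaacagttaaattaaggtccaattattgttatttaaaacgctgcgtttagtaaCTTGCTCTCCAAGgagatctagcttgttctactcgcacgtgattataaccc
HSP23.5: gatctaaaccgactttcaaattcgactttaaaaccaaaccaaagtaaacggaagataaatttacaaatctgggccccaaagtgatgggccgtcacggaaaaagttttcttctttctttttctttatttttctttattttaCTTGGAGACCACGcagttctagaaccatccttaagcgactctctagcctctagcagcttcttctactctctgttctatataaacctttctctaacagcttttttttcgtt
The UPOX match ends 38 bases before the gene start and that of HSP23.5 ends 97 bases before it. Among the 20 measured members 5 (UPOX, NDB2, HSP23.5, DTX3 and CYP81D8) had a match on either strand in this window, 25.0%, against 1.67% of 22542 promoters of the same length. The share was 2.39% of promoters of genes higher with EtBr, 1.19% of those lower and 1.39% of those that did not pass. A match is a description of these letters and not a shown binding site. CYP81D8 did not pass without EtBr replicate 1, 2 or 3 or doxycycline replicate 1 or 2 (limma adjusted p = 0.053 to 0.081).

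Other stimulon members differed in size and direction. MGE1, which encodes the nucleotide exchange partner of matrix HSP70, had 2157, 2549 and 2871 with EtBr, against 712, 707 and 816 with doxycycline and 141, 135 and 179.8 in water, with a log2 difference of 1.75 ± 0.13 (limma adjusted p = 0.00011). AT12CYS, a twin-cysteine protein gene, stood at 1369.6 ± 119 with EtBr, against 399 ± 69.1 with doxycycline and 5.54 ± 2.79 in water (SD, n = 3), with a difference of 1.79 ± 0.15, and DTX1, a multidrug efflux carrier gene, differed by 2.34 ± 0.26. OM66, an AAA ATPase gene of the outer mitochondrial membrane, differed by only 0.66 ± 0.12. The members that were lower were GSTU25, GSTU24 and AT5G14730. GSTU25, a tau glutathione transferase gene, had 322, 334 and 112 with EtBr, against 3016, 3659 and 3146 with doxycycline and 6.17, 3.96 and 20.2 in water, with a difference of -3.82 ± 0.41. AT5G14730 had 1129, 1036 and 1404 with EtBr, against 3826, 3707 and 4438 with doxycycline and 347, 345 and 521 in water, with a log2 difference of -1.75 ± 0.14 (limma adjusted p = 0.00013).

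A few strongly induced members had much the same level with both compounds. ABCB4, an auxin transporter gene, had 16991, 16205 and 16855 in EtBr libraries, against 15634, 18571 and 21785 in doxycycline libraries and 1218, 1108 and 1246 in water libraries, and the treated groups overlapped. Its difference of -0.15 ± 0.16 was not past the test (limma adjusted p = 0.46). UGT74E2, a glucosyltransferase gene acting on the auxin indole-3-butyric acid, had 4502, 4052 and 4488 in EtBr libraries, against 3599.5, 4429.5 and 5622 in doxycycline libraries and 2.06, 34.6 and 3.19 in water libraries, with a difference of -0.04 ± 0.17 (limma adjusted p = 0.84). NDB2, an external NAD(P)H dehydrogenase gene of mitochondria, differed by 0.28 ± 0.17 and did not pass either.

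**Figure D2:**
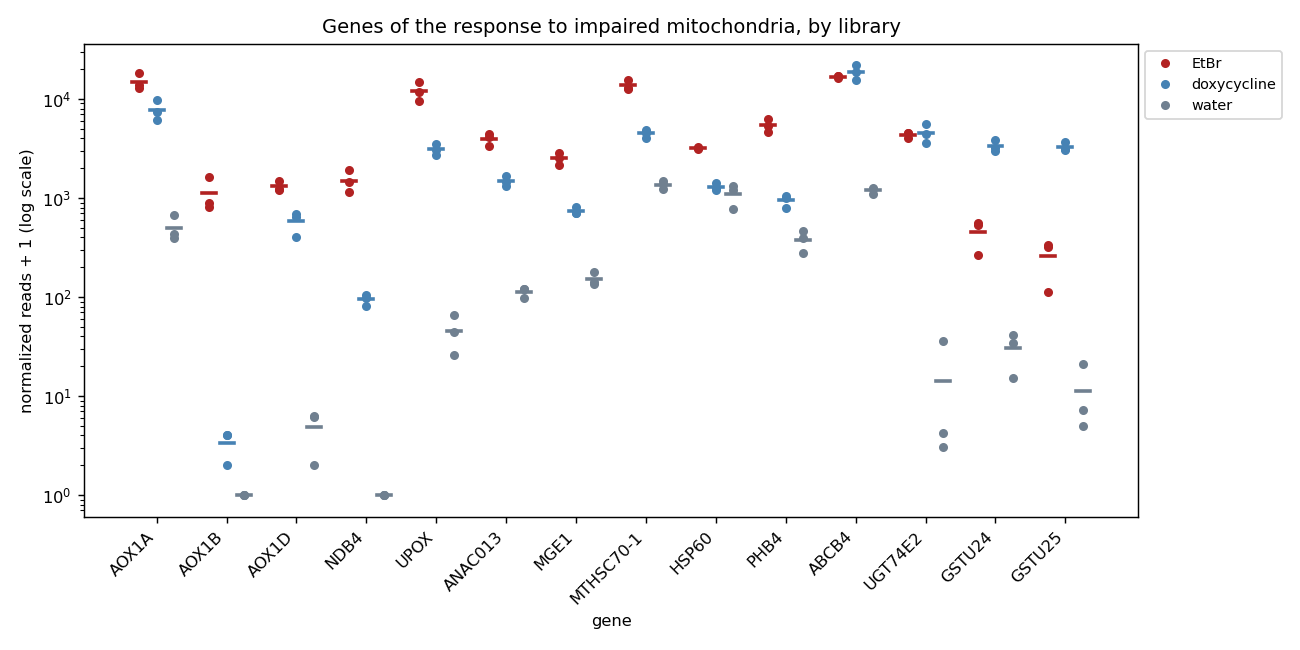
Normalized reads plus 1 (log scale) of 14 genes tied to mitochondrial stress in each EtBr (red), doxycycline (blue) and water (grey) library, with group means as short lines. AOX1B and NDB4 stand apart with high EtBr points, ABCB4 and UGT74E2 have overlapping treated points, and GSTU24 and GSTU25 lie lower with EtBr.

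Mitochondrial chaperones and proteases were almost all higher with EtBr. Here 22 of 24 measured members were higher, 0 were lower and 2 did not pass the test, with a median difference of 1.32. The summed level of the list was 68359.6 to 75339 per EtBr library, against 26590.5 to 28956 per doxycycline library and 13587 to 16276 per water library. MTHSC70-1, a gene of the matrix HSP70, had 12890.0, 12538 and 15652 in EtBr libraries, against 4036, 4495 and 4909 in doxycycline libraries and 1222, 1477 and 1386 in water libraries, with a log2 difference of 1.61 ± 0.13 (limma adjusted p = 0.00016). HSP60, a gene of the matrix chaperonin, had 3115, 3197 and 3294 in EtBr libraries, against 1208, 1274 and 1428 in doxycycline libraries and 765, 1325 and 1194 in water libraries, with a log2 difference of 1.30 ± 0.09 (limma adjusted p = 9.6e-05). For HSP60 the doxycycline libraries thus overlapped the water libraries, whereas the EtBr libraries lay above both.

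PHB4 and PHB3, which encode prohibitins, and FTSH10, which encodes an inner membrane protease, were also higher. PHB4 had 4673, 5329 and 6229.9 with EtBr, against 1047, 794 and 997 with doxycycline and 277, 391 and 464 in water, with a log2 difference of 2.52 ± 0.15 (limma adjusted p = 6.3e-05). PHB3 differed by 1.57 ± 0.08 and FTSH10 by 1.81 ± 0.10, and LON1, the main matrix protease gene, by 1.55 ± 0.11. HSP23.5, a small heat shock protein gene, had 5533, 5771 and 6165 with EtBr, against 1602, 2122 and 2538 with doxycycline and 126, 359 and 148 in water, with a log2 difference of 1.50 ± 0.17 (limma adjusted p = 0.00050). The largest difference among them was that of LON3, which had 159 reads in the EtBr libraries and 0 in the doxycycline libraries, at least 48.0-fold higher taking 3 reads over the group as the floor, or at least 31.9-fold without doxycycline replicate 2. FTSH4 (0.16 ± 0.08) and HSP26.5 (-1.83 ± 0.78) did not pass the test. HSP26.5 passed without EtBr replicate 1, at -2.75 (limma adjusted p = 0.0026). In this list, the members lower numbered 1 without EtBr replicate 1.

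In the alternative respiratory chain, which bypasses proton-pumping complexes, genes silent in water separated the compounds most. Here 8 of 11 measured members were higher, 0 were lower and 3 did not pass the test, with a median difference of 1.21. AOX1B, an alternative oxidase gene next to AOX1A on chromosome 3, had 892, 805 and 1629 in EtBr libraries, against 3.07, 1.01 and 3.06 in doxycycline libraries and 0, 0 and 0 in water libraries, with a log2 difference of 8.36 ± 0.41 (limma adjusted p = 4.2e-05). NDB4, an external NAD(P)H dehydrogenase gene, had 1151, 1438 and 1909 in EtBr libraries, against 97.2, 104 and 80.5 in doxycycline libraries and 0, 0 and 0 in water libraries, with a log2 difference of 3.96 ± 0.20 (limma adjusted p = 4.7e-05). AOX1D, which stood at 1310.3 ± 156 with EtBr, against 579 ± 152 with doxycycline and 3.81 ± 2.45 in water, differed by 1.21 ± 0.21, and NDA1, an internal NAD(P)H dehydrogenase gene, by 1.96 ± 0.19. NDB1 (0.13 ± 0.21), NDC1 (0.06 ± 0.13) and NDB2 did not pass the test. NDC1 passed without EtBr replicate 3, at 0.19 (limma adjusted p = 0.045).

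The regulators that carry the mitochondrial signal were less uniform. Of the retrograde regulators, 6 of 12 measured members were higher, 2 were lower and 4 did not pass the test, with a median difference of 0.29. Shares over all genes were 32.4% higher and 24.8% lower. ANAC016 had 410.3, 453 and 486 with EtBr, against 212, 221 and 215 with doxycycline and 121, 79.2 and 142 in water, with a difference of 1.05 ± 0.11. WRKY40, known as a repressor of mitochondrial stress genes, had 2894, 3142 and 2511 in EtBr libraries, against 9629.7, 9412 and 8676 in doxycycline libraries and 8209, 9851 and 9354 in water libraries, with a log2 difference of -1.70 ± 0.11 (limma adjusted p = 8.4e-05), so its doxycycline libraries lay near the water level and its EtBr libraries below it. WRKY63, known as an opposing activator, differed by 1.84 ± 0.32, and ANAC053 by -1.14 ± 0.14. ANAC017 differed by 0.40 ± 0.14. ANAC017 did not pass without EtBr replicate 1, 2 or 3 or doxycycline replicate 1 or 3 (limma adjusted p = 0.062 to 0.14). RCD1 (0.09 ± 0.14), CDKE1 (-0.10 ± 0.12) and WRKY15 (0.02 ± 0.13) did not pass the test.

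As a list, nuclear genes that maintain organelle DNA lay near the whole comparison in higher calls, but lower calls were rarer. Of these, 7 of 17 measured members were higher, 1 was lower and 9 did not pass the test. In the whole comparison 32.4% of genes were higher and 24.8% lower. The median difference of the list was 0.39, against 0.14 over all genes. RECA2, a recombinase gene for organelle DNA, had 541, 534 and 525 in EtBr libraries, against 98.2, 112 and 141 in doxycycline libraries and 64.7, 85.1 and 61.7 in water libraries, with a log2 difference of 2.19 ± 0.16 (limma adjusted p = 9.9e-05). The gyrase genes GYRA and GYRB2 differed by 1.49 ± 0.12 and 1.23 ± 0.11, while GYRB1 did not pass the test (-0.71 ± 0.27). GYRB1 passed without EtBr replicate 3, at -0.39 (limma adjusted p = 0.034). TWINKLE, a helicase and primase gene, differed by 0.58 ± 0.14, and MSH1, a gene of organelle mismatch surveillance, by 0.39 ± 0.25 without passing. POLIA, an organelle DNA polymerase gene, was lower at -0.42 ± 0.14. POLIA did not pass without EtBr replicate 2 or 3 or doxycycline replicate 1 or 2 (limma adjusted p = 0.096 to 0.13). In this list, the members lower numbered 0 without EtBr replicate 2 or doxycycline replicate 1 or 2 and 2 without EtBr replicate 3.

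The polymerases that read organelle genes split by type. Phage-type polymerase genes were higher with EtBr, at 1.56 ± 0.14 for RPOTMP, 0.71 ± 0.16 for RPOTM and 0.69 ± 0.13 for RPOTP. Of the 6 sigma factor genes, which direct the plastid-encoded polymerase to its promoters, SIG1, SIG2, SIG3, SIG4 and SIG6 were lower and SIG5 higher. SIG2 had 983, 966 and 1008 in EtBr libraries, against 2536, 2722 and 2425 in doxycycline libraries and 2179, 2242 and 2003 in water libraries, with a log2 difference of -1.38 ± 0.08 (limma adjusted p = 5.8e-05). SIG3 and SIG6 differed by -1.50 ± 0.11 and -1.54 ± 0.11. SIG5, a stress-responsive member, differed by 1.15 ± 0.36. SIG5 did not pass without EtBr replicate 2 or doxycycline replicate 1, 2 or 3 (limma adjusted p = 0.050 to 0.10).

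Reads of the 2 organelle genomes differed between the compounds in opposite directions. Plastid reads made up 0.0247, 0.0404 and 0.0209% of EtBr libraries, against 0.119, 0.194 and 0.150% of doxycycline libraries and 0.0154 to 0.0176% of water libraries. Every EtBr library thus held less than every doxycycline library. Mitochondrial reads made up 0.377, 0.471 and 0.360% of EtBr libraries, against 0.0358, 0.00916 and 0.0848% of doxycycline libraries and 0.0109 to 0.0194% of water libraries. Ribosomal RNA genes made up 0.541, 0.722 and 0.449% with EtBr, against 0.133, 0.0265 and 0.481% with doxycycline and 0.0495 to 0.0904% in water. The doxycycline libraries thus had the same order in mitochondrial and ribosomal RNA shares, and organelle ribosomal RNA can count in both. Whether transcript levels or their capture during library preparation differed was not tested.

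**Figure D3:**
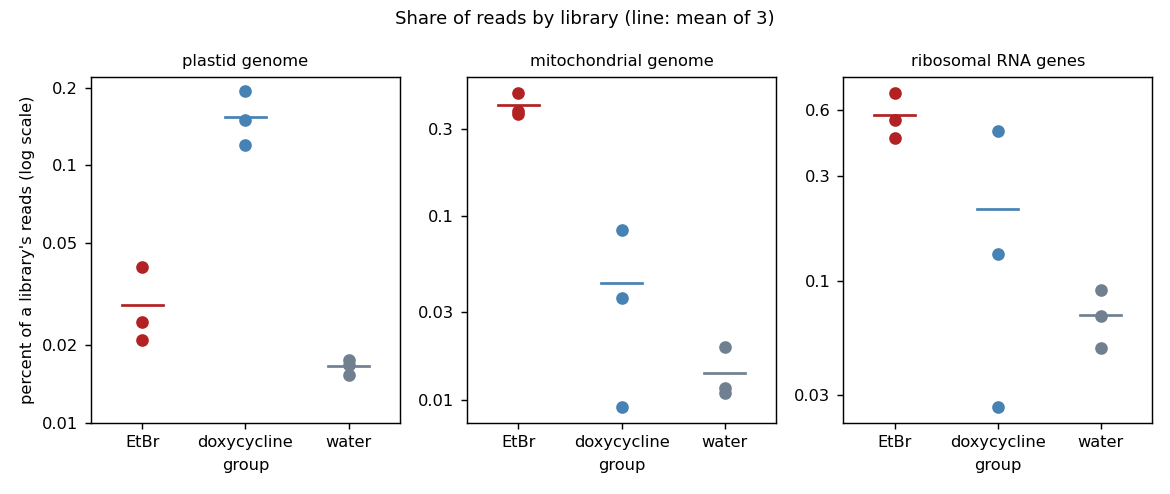
Percent of each library's reads (log scale) on plastid genes, mitochondrial genes and ribosomal RNA genes, for EtBr, doxycycline and water libraries, with lines at the mean of 3. Plastid reads are highest with doxycycline (0.119 to 0.194%), mitochondrial reads are highest with EtBr (0.360 to 0.471%), and the ribosomal share of doxycycline libraries spans 0.0265 to 0.481%.

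Of the plastid genome, 1 of 102 measured members was higher, 67 were lower and 34 did not pass the test, with a median difference of -2.50, or -2.54 with members at 0 reads in a group set to their bound. NDHI, which encodes a subunit of the plastid NDH complex, had 0, 9.09 and 1.99 in EtBr libraries, against 811, 802 and 650.3 in doxycycline libraries and 2.06, 1.98 and 2.13 in water libraries, with a log2 difference of -7.92 ± 0.78 (limma adjusted p = 0.00029). The EtBr libraries of NDHI thus lay near the water level. MATK, a maturase gene inside the TRNK intron whose reads can count for both, had 18.3, 32.7 and 8.95 in EtBr libraries, against 2961, 3170.5 and 2755 in doxycycline libraries and 11.3, 30.7 and 18.1 in water libraries, with a difference of -7.31 ± 0.41. RPOC1, a subunit gene of the plastid-encoded RNA polymerase, had 6.96, 1.82 and 0 in EtBr libraries, against 218, 356 and 184 in doxycycline libraries and 2.06, 22.8 and 7.45 in water libraries. Other subunit genes of the same NDH complex were also among the largest falls of all genes, NDHA at -5.97 ± 0.76 and NDHG at -5.89 ± 0.30, as was the cytochrome b6f gene PETD at -5.17 ± 0.65. NDHI differed by -7.10 without EtBr replicate 1 and -8.76 without EtBr replicate 2, against -7.92 with all libraries. NDHA differed by -5.28 without EtBr replicate 1 and -6.87 without EtBr replicate 2, against -5.97 with all libraries. Leaving out EtBr replicate 1 and EtBr replicate 3 in turn put the log2 difference of RPOC1 at -7.18 and -5.68, against -6.43 with all libraries. Leaving out EtBr replicate 2 and EtBr replicate 3 in turn put the log2 difference of PETD at -5.87 and -4.46, against -5.17 with all libraries.

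Some plastid transcripts stood apart from these falls. RPL32, a ribosomal protein gene, was the member called higher, with 437, 520.0 and 649.7 with EtBr, against 396, 340.3 and 383 with doxycycline and 375, 329.5 and 245 in water. RPL32 did not pass without EtBr replicate 2 or 3 or doxycycline replicate 1, 2 or 3 (limma adjusted p = 0.052 to 0.11). PSAJ (1.00 ± 0.45) and CLPP1 (-0.01 ± 0.15) did not pass the test, nor did PSBA (-1.55 ± 0.70) and RBCL (-2.005 ± 0.98), whose spread between libraries was wide. PSAJ passed without EtBr replicate 1, at 1.41 (limma adjusted p = 0.033). PSBA passed without doxycycline replicate 1, at -2.22 (limma adjusted p = 0.027). RBCL passed without doxycycline replicate 1, at -2.88 (limma adjusted p = 0.043). RBCL, the gene of the Rubisco large subunit, had 189, 457 and 64.7 with EtBr, against 211, 2078 and 837 with doxycycline and 85.3, 128 and 187 in water.

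Of the mitochondrial genome, 22 of 70 measured members were higher, 3 were lower and 45 did not pass the test, with a median difference of 0.53, or 0.66 with members at 0 reads in a group set to their bound. Over all genes 32.4% were higher and 24.8% lower. Higher calls were thus no more frequent in this list than over all genes, while lower calls were rarer. Among list members with a mean of at least 10 normalised reads the median was 1.84, with 20 higher and 0 lower. This mean takes in the EtBr libraries, so members with few doxycycline reads, such as ATP9, can pass through EtBr reads alone. The filter may thus itself raise the median. COX2, a cytochrome c oxidase subunit gene, had 228, 339 and 353 in EtBr libraries, against 47.1, 62.8 and 87.7 in doxycycline libraries and 4.11, 12.9 and 13.8 in water libraries, with a log2 difference of 2.22 ± 0.29 (limma adjusted p = 0.00083). ATP9, an ATP synthase subunit gene, had 90.4, 150.0 and 131 in EtBr libraries, against 3.07, 4.05 and 4.08 in doxycycline libraries and 3.08, 0 and 0 in water libraries, with a log2 difference of 4.70 ± 0.31 (limma adjusted p = 8.4e-05). ORF240A differed by 3.49 ± 0.38 and COX1 by 3.31 ± 0.53. RRN18, a mitochondrial ribosomal RNA gene, had 17389.8, 25306 and 20169 with EtBr, against 2674, 296 and 6530.2 with doxycycline and 811, 1099 and 914 in water. The list summed to 66310 to 84992 per EtBr library, so RRN18 made up a sizable part of it. RRN18 did not pass without EtBr replicate 1, 2 or 3 or doxycycline replicate 1 (limma adjusted p = 0.053 to 0.079). RRN18 differed by 2.31 without doxycycline replicate 2 and 4.54 without doxycycline replicate 3, against 3.58 with all libraries. Members that did not pass included MATR (-0.12 ± 0.72), a maturase gene, and NAD1A (0.10 ± 0.97), an exon group of a complex I gene. Mitochondrial genome members lower numbered 1 without doxycycline replicate 3.

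Nuclear photosynthesis genes were mostly lower with EtBr. Here 6 of 45 measured members were higher, 29 were lower and 10 did not pass the test, with a median difference of -0.67. Their summed level was 752744 to 1118885 per EtBr library, against 1363974 to 1565260.0 per doxycycline library and 1561198 to 1652801 per water library. In whole seedlings, fewer cells of a type and less RNA per cell cannot be told apart. PSAD-1, a photosystem I subunit gene, had 4799, 4685 and 4411 in EtBr libraries, against 14308, 15549.5 and 13615 in doxycycline libraries and 13791, 16572 and 13707 in water libraries, with a log2 difference of -1.64 ± 0.10 (limma adjusted p = 7.3e-05). PSBX, a photosystem II subunit gene, differed by -1.98 ± 0.12, RBCS1B, a Rubisco small subunit gene, by -2.38 ± 0.16, and GAPB, a Calvin cycle dehydrogenase gene, by -1.66 ± 0.26. RBCS1A, another small subunit gene, did not pass the test (-0.22 ± 0.55).

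Several light-harvesting genes were higher instead. LHCB2.1 had 823, 935 and 738 with EtBr, against 198, 228 and 225 with doxycycline and 227, 215 and 213 in water, with a log2 difference of 1.93 ± 0.12 (limma adjusted p = 7.7e-05), and its near-identical copy LHCB2.2 differed by 1.97 ± 0.19. LHCB1.1 had 702, 716 and 663 in EtBr libraries, against 218, 255 and 173 in doxycycline libraries and 292, 240.4 and 188 in water libraries, with a log2 difference of 1.70 ± 0.15 (limma adjusted p = 0.00022). LHCB6 differed by 1.08 ± 0.14, whereas LHCB5 differed by -1.29 ± 0.17 and LHCB3 by -1.49 ± 0.16.

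Genes of chlorophyll synthesis were more often lower than higher. Of this list 3 of 15 measured members were higher, 8 were lower and 4 did not pass the test, with a median difference of -0.66. CHLM, a methyltransferase gene of the magnesium branch, had 2309.9, 2309.8 and 1785 with EtBr, against 7295, 7851 and 6580.2 with doxycycline and 8480.4, 6226 and 7224 in water, with a log2 difference of -1.77 ± 0.14 (limma adjusted p = 0.00012). CHLI1, a magnesium chelatase subunit gene, differed by -1.67 ± 0.10 and PORC by -2.33 ± 0.41. PORA, a protochlorophyllide reductase gene known from dark-grown seedlings, moved the other way, with 206, 241 and 191 with EtBr, against 6.14, 6.08 and 0 with doxycycline and 4.11, 0 and 9.58 in water, a difference of 5.85 ± 0.78. For PORA the log2 difference was 4.90 without doxycycline replicate 3, against 5.85 with all libraries. CAO, the chlorophyll b synthase gene, differed by 1.25 ± 0.10. GLK1, a regulator of chloroplast development, had 533, 464 and 659.6 in EtBr libraries, against 558, 566 and 550.4 in doxycycline libraries and 1115, 925 and 992 in water libraries. Its treated groups overlapped below the water libraries, with a difference of -0.03 ± 0.14 (limma adjusted p = 0.86).

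DNA damage genes separated EtBr from doxycycline, and the doxycycline libraries of those named next lay near the water level. Of this list 19 of 26 measured members were higher, 0 were lower and 7 did not pass the test, with a median difference of 1.58. The median stood 2.06 above water with EtBr and 0.13 with doxycycline, values that share the water libraries. In plants the NAC factor SOG1 drives this response downstream of the kinases ATM and ATR. PARP2, a poly(ADP-ribose) polymerase gene, had 714, 777 and 444 in EtBr libraries, against 40.9, 57.7 and 72.4 in doxycycline libraries and 28.8, 65.3 and 42.6 in water libraries, with a log2 difference of 3.47 ± 0.29 (limma adjusted p = 0.00016). SMR7, a cyclin-dependent kinase inhibitor gene, had 99.98, 112 and 68.7 in EtBr libraries, against 6.14, 11.1 and 8.15 in doxycycline libraries and 13.4, 0 and 12.8 in water libraries, with a log2 difference of 3.32 ± 0.34 (limma adjusted p = 0.00032). In both genes each EtBr library lay above each doxycycline and each water library.

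The promoters of SMR7 and PARP2 are shown because both genes were higher with EtBr and match CTT, any 7 bases, AAG, the core that SOG1 is known to bind. The 250 bases before the gene start are from RefSeq TAIR10.1, 5′ to 3′ along the gene, with the match in capitals. SMR7 lies at chr3:10231568-10231817, minus strand and PARP2 at chr4:1049516-1049765, plus strand.
SMR7: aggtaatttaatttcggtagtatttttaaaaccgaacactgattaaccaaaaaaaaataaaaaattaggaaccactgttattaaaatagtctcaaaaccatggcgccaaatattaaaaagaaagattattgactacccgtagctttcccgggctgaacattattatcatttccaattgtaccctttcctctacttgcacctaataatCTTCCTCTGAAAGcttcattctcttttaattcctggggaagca
PARP2: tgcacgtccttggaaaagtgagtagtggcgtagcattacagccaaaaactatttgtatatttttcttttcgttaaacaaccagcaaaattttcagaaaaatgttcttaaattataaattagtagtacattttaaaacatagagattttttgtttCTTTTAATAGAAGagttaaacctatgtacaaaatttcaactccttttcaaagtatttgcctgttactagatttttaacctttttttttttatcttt
The motif was found, on either strand, in 5 of 26 measured members (PARP2, SMR4, SMR7 and ANAC044 among them), 19.2%, against 9.44% of 22542 promoters. The motif reads alike on both strands. It stood in 10.2% of promoters of genes higher with EtBr, in 7.94% of those lower and in 9.81% of those that did not pass. BRCA1 and TSO2 had no match in this window.

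Other members of the damage response moved with them. BRCA1, a repair gene, had 191, 152 and 51.7 with EtBr, against 6.14, 15.2 and 26.5 with doxycycline and 11.3, 22.8 and 26.6 in water, with a log2 difference of 2.98 ± 0.66 (limma adjusted p = 0.0084). TSO2, a ribonucleotide reductase subunit gene, had 1332, 1469 and 802 with EtBr, against 167, 153 and 144 with doxycycline and 166, 236 and 281 in water, with a log2 difference of 2.91 ± 0.23 (limma adjusted p = 0.00014). TK1A, a thymidine kinase gene, differed by 2.87 ± 0.13, and WEE1, a checkpoint kinase gene, by 3.34 ± 0.38. ANAC044, a NAC gene of the checkpoint, was above water with both compounds, with 605, 794 and 565 with EtBr, against 90.1, 88.1 and 109 with doxycycline and 2.06, 1.98 and 7.45 in water, and differed by 2.75 ± 0.17. CYCB1;1, the mitotic cyclin gene known to be induced by DNA damage, had 211, 238 and 168 in EtBr libraries, against 42.0, 34.4 and 57.1 in doxycycline libraries and 15.4, 53.4 and 58.5 in water libraries, with a log2 difference of 2.2 ± 0.25 (limma adjusted p = 0.00052). SOG1 differed by 1.09 ± 0.15 and ATR by 2.19 ± 0.20, while ATM (0.40 ± 0.18), KU70 (0.29 ± 0.15) and AGO2 (-0.12 ± 0.18) did not pass the test. ATM passed without EtBr replicate 3, at 0.55 (limma adjusted p = 0.024).

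DNA replication genes were higher with EtBr, while most genes of mitosis were not. In the S phase list 19 of 20 measured members were higher, 0 were lower and 1 did not pass the test, with a median difference of 2.23. MCM4, a subunit gene of the replicative helicase, had 299, 292 and 294 in EtBr libraries, against 50.1, 45.6 and 51.0 in doxycycline libraries and 52.4, 95.0 and 94.7 in water libraries, with a log2 difference of 2.57 ± 0.15 (limma adjusted p = 5.7e-05). PCNA2, a sliding clamp gene, had 542, 561 and 469.6 with EtBr, against 63.5, 35.5 and 60.1 with doxycycline and 51.4, 80.2 and 100 in water, with a log2 difference of 3.32 ± 0.25 (limma adjusted p = 0.00011). ETG1, a replisome gene, differed by 2.92 ± 0.21, and CYCD3;1, a G1 cyclin gene, did not pass (-0.37 ± 0.14). CYCD3;1 passed without EtBr replicate 1, at -0.46 (limma adjusted p = 0.041). S phase members lower numbered 1 without EtBr replicate 1. In the mitosis list 3 of 18 measured members were higher, 6 were lower and 9 did not pass the test, with a median difference of -0.30. CYCA1;1, a mitotic cyclin gene, had 20.9, 18.2 and 14.9 in EtBr libraries, against 58.3, 67.9 and 71.3 in doxycycline libraries and 52.4, 67.3 and 80.9 in water libraries, with a log2 difference of -1.82 ± 0.26 (limma adjusted p = 0.0013). CYCB2;1 differed by -2.27 ± 0.52 and CYCA2;3 by -1.14 ± 0.23, while CDKB2;1 (-0.17 ± 0.22) and KN (-0.71 ± 0.30), the cytokinesis syntaxin gene, did not pass. Mitosis members higher numbered 1 without EtBr replicate 1 or 2 or doxycycline replicate 3 and 0 without doxycycline replicate 1.

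**Figure D4:**
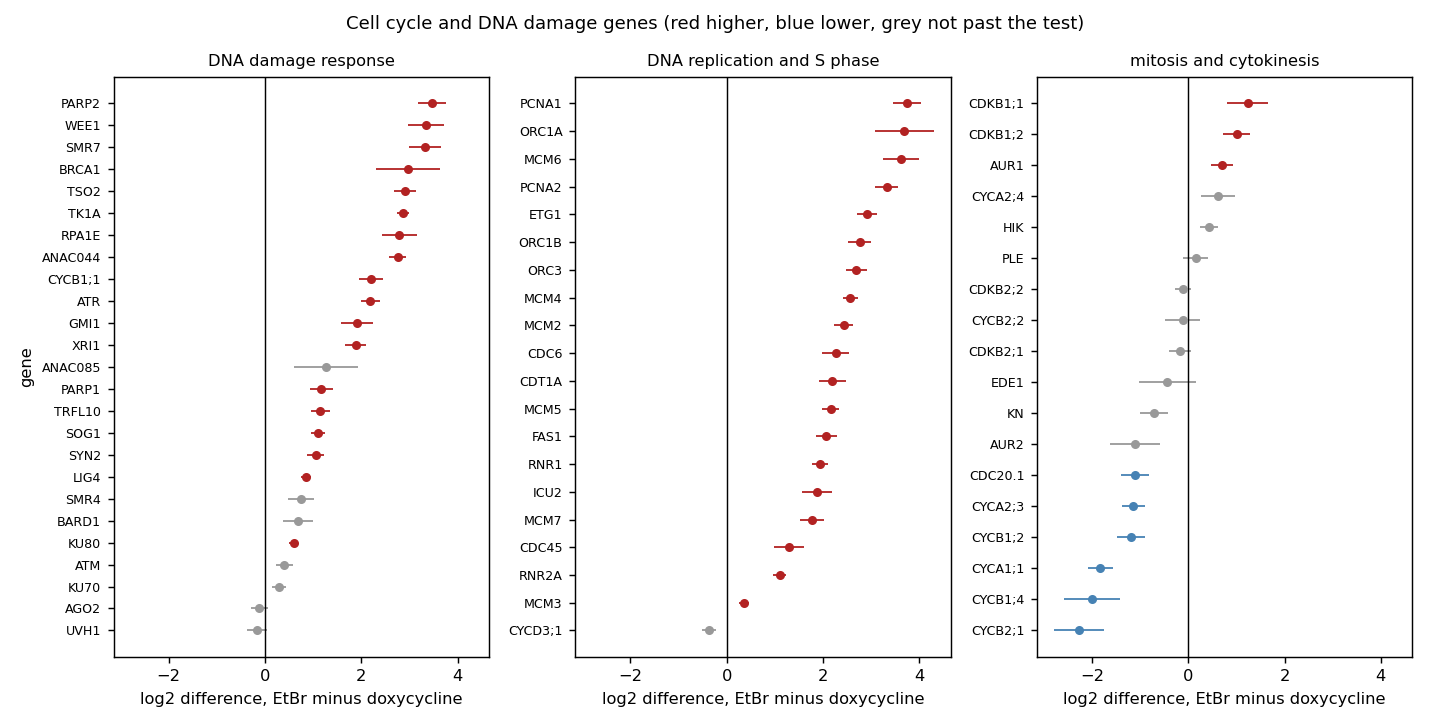
Log2 difference (EtBr minus doxycycline, with SE, 3 libraries each) of genes of the DNA damage, S phase and mitosis lists; red is higher, blue lower and grey not past the test. In the S phase list 19 of 20 genes lie to the right, while mitosis genes lie on both sides, with CYCB2;1 at -2.27.

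Protein quality control genes outside mitochondria were in part higher with EtBr than with doxycycline. Of the proteasome subunit genes 27 of 30 measured members were higher, 0 were lower and 3 did not pass the test, with a median difference of 0.60, and 2 of the 27 were higher by at least 2-fold. PAC1, PBA1, PBB1, PBC1, RPN2A, RPN7 and RPN11 did not pass without doxycycline replicate 1 (limma adjusted p = 0.051 to 0.15). RPN12A, a lid subunit gene, had 2904, 3165 and 3637 with EtBr, against 1772, 1558 and 1709 with doxycycline and 1428, 1498 and 1603 in water, with a log2 difference of 0.94 ± 0.11 (limma adjusted p = 0.00057), and RPN10 and RPT6A differed by 1.00 ± 0.10 and 0.91 ± 0.07. These differences were small beside those of mitochondrial chaperones, but the groups did not overlap for 28 of 30 genes, against 36.4% of all genes.

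In the endoplasmic reticulum unfolded protein response 13 of 23 measured members were higher, 1 was lower and 9 did not pass the test, with a median difference of 0.60. The list median stood at 0.19 against water with EtBr and -0.88 with doxycycline, values that share the water libraries. The list summed to 39210 to 48677 per EtBr library, against 26963 to 27566 per doxycycline library and 41925 to 47368 per water library. Its EtBr sums thus overlapped those of water, while its doxycycline sums lay below both. BIP1, a luminal HSP70 gene that can share reads with BIP2, had 2646, 2446 and 3361 in EtBr libraries, against 1749, 1498 and 1702 in doxycycline libraries and 4709.7, 4434 and 3771 in water libraries, with a log2 difference of 0.76 ± 0.14 (limma adjusted p = 0.0036). Both compounds thus lay below water for BIP1, and doxycycline further below. BIP3, the stress-induced HSP70 gene, had 186, 142 and 132 in EtBr libraries, against 5.12, 5.07 and 30.6 in doxycycline libraries and 92.5, 82.1 and 48.9 in water libraries, with a log2 difference of 3.86 ± 0.66 (limma adjusted p = 0.0028). BZIP60, the transcription factor gene whose RNA is spliced by IRE1, had 13635, 13573 and 13928 with EtBr, against 3706, 3531 and 3877 with doxycycline and 2601, 2795 and 2588 in water, with a log2 difference of 1.89 ± 0.09 (limma adjusted p = 4.2e-05). CRT3 differed by 1.36 ± 0.09 and NAC103 by 3.01 ± 0.36. NAC062 was the lower member, at -1.82 ± 0.10. Members of this list lower numbered 3 without EtBr replicate 3. For BIP3 the log2 difference was 4.65 without doxycycline replicate 3, against 3.86 with all libraries.

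Of cytosolic heat shock genes 9 of 20 measured members were higher, 2 were lower and 9 did not pass the test, with a median difference of 0.36. The shares of all genes were 32.4% higher and 24.8% lower. HSP18.2, a small heat shock protein gene, had 156, 135 and 89.5 in EtBr libraries, against 8.19, 9.12 and 10.2 in doxycycline libraries and 9.25, 13.8 and 5.32 in water libraries, with a log2 difference of 3.62 ± 0.30 (limma adjusted p = 0.00016). HSFA7B, a heat shock factor gene, differed by 5.17 ± 0.54 from very few doxycycline reads, and HSFB2A, a factor gene of the repressor class, was lower at -0.91 ± 0.08. HSP90.1 differed by 1.47 ± 0.20, while HSFA2 (-0.29 ± 0.35) and HSP70-4 (0.55 ± 0.23) did not pass. HSP70-4 passed without doxycycline replicate 2, at 0.73 (limma adjusted p = 0.043).

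Glutathione transferases were split, and the same family held large differences both ways. Of the tau and phi members 16 of 37 measured members were higher, 9 were lower and 12 did not pass the test, with a median difference of 0.34. Among all genes 32.4% were higher and 24.8% lower, so lower calls were about as frequent in this list. GSTF3 had 2048, 2588 and 3132 in EtBr libraries, against 115, 86.1 and 110.1 in doxycycline libraries and 117, 39.6 and 81.9 in water libraries, with a log2 difference of 4.62 ± 0.19 (limma adjusted p = 3.5e-05). GSTF2, which can share reads with GSTF3, differed by 2.42 ± 0.14, GSTU17 by 3.50 ± 0.34 and GSTU12 by 3.20 ± 0.23. GSTU22 had 57.4, 47.3 and 56.7 in EtBr libraries, against 524, 558 and 703 in doxycycline libraries and 12.3, 4.95 and 14.9 in water libraries, with a log2 difference of -3.44 ± 0.17 (limma adjusted p = 4.3e-05). The tau genes GSTU24 and GSTU25, which can share reads with each other, differed by -2.95 ± 0.29 and -3.82 ± 0.41, so all 3 stood far above water with doxycycline and much less so with EtBr. GSTF8, a defence-linked phi gene, was lower at -1.25 ± 0.14.

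Genes of low oxygen and fermentation were mostly higher with EtBr. Here 14 of 17 measured members were higher, 1 was lower and 2 did not pass the test, with a median difference of 1.36. HB1, a class 1 haemoglobin gene, had 8010.3, 8573 and 7206 in EtBr libraries, against 346, 303 and 432 in doxycycline libraries and 224, 176 and 281 in water libraries, with a log2 difference of 4.47 ± 0.15 (limma adjusted p = 2.7e-05). HRE2, a group VII ERF gene, had 4039.9, 5699 and 4811 in EtBr libraries, against 169, 120.5 and 151 in doxycycline libraries and 1.03, 2.97 and 2.13 in water libraries, with a log2 difference of 5.04 ± 0.17 (limma adjusted p = 2.7e-05). ADH1, the alcohol dehydrogenase gene, had 1746, 1807 and 1109 in EtBr libraries, against 364, 333 and 336 in doxycycline libraries and 58.6, 40.6 and 54.3 in water libraries, with a log2 difference of 2.14 ± 0.19 (limma adjusted p = 0.00021). LBD41 differed by 2.77 ± 0.12, LDH, the lactate dehydrogenase gene, by 2.85 ± 0.13, and the plant cysteine oxidase genes PCO1 and PCO2 by 3.97 ± 0.21 and 3.71 ± 0.20. PDC1, the pyruvate decarboxylase gene ahead of ADH1 in the pathway, had 1919.5, 1883 and 1612 in EtBr libraries, against 1587, 2099.8 and 1750.0 in doxycycline libraries and 31.9, 11.9 and 45.8 in water libraries. Its treated groups overlapped far above water, with a difference near 0 (SE 0.13) (limma adjusted p = 1.00). RAP2.3 was the lower member, at -1.09 ± 0.19.

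Abscisic acid and dehydration genes did not move as a group. Here 7 of 24 measured members were higher, 9 were lower and 8 did not pass the test, with a median difference of -0.35. Over all genes 32.4% were higher and 24.8% lower. COR47 and ERD10, related dehydrin genes, were lower, and COR47 had 2289.9, 2052 and 1999.7 with EtBr, against 13109.5, 10389 and 9717 with doxycycline and 7374, 8173 and 6284 in water, with a log2 difference of -2.38 ± 0.14 (limma adjusted p = 5.7e-05). ERD10 differed by -1.87 ± 0.13 and NCED3, the gene of the rate-limiting enzyme of abscisic acid synthesis, by -2.58 ± 0.27. COR15A, a chloroplast cold protein gene, had 216, 189 and 217 with EtBr, against 9.21, 13.2 and 11.2 with doxycycline and 0, 3.96 and 6.38 in water, with a log2 difference of 4.10 ± 0.24 (limma adjusted p = 5.7e-05). RD22 differed by 3.03 ± 0.36 and ABI5, a bZIP factor gene of this hormone, by 1.85 ± 0.21.

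Jasmonate genes differed in both directions, more often lower with EtBr. Here 6 of 23 measured members were higher, 11 were lower and 6 did not pass the test, with a median difference of -0.49. OPR3, a peroxisomal reductase gene of jasmonate synthesis, had 129, 141 and 167 in EtBr libraries, against 540.4, 483 and 496 in doxycycline libraries and 559, 659 and 777 in water libraries, with a log2 difference of -1.80 ± 0.14 (limma adjusted p = 0.00012). AOC1, a cyclase gene with near-identical copies, differed by -2.21 ± 0.17, AOS, the allene oxide synthase gene, by -1.65 ± 0.18, and CYP94B3, a jasmonate-inactivating P450 gene, by -3.76 ± 0.36. The defensin gene PDF1.2 differed by 3.28 ± 0.54 and the aminotransferase gene TAT3 by 3.22 ± 0.65, both from few doxycycline reads. JAZ10, a repressor gene of the pathway, differed by 1.87 ± 0.20. Jasmonate members lower numbered 7 without EtBr replicate 1 or 2 or doxycycline replicate 1 or 2.

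In the salicylate and defence list 10 of 20 measured members were higher, 2 were lower and 8 did not pass the test, with a median difference of 0.92. PAD3, the last enzyme gene of camalexin synthesis, had 1644, 1619.9 and 1379.9 in EtBr libraries, against 156, 213 and 223 in doxycycline libraries and 49.3, 6.93 and 56.4 in water libraries, with a log2 difference of 2.98 ± 0.16 (limma adjusted p = 5.1e-05). CYP71A13, an earlier camalexin gene, had 1 read with doxycycline, a ratio of reads of 239 (95% counting interval 42.5 to 9469.6), 159 without doxycycline replicate 2 and at least 53.1-fold without doxycycline replicate 3. PR2, a glucanase gene, had 232 reads in the EtBr libraries and 0 in the doxycycline libraries, at least 70.0-fold higher, or at least 46.5-fold without doxycycline replicate 2. FMO1, a systemic resistance gene, differed by 3.37 ± 0.32, while ICS1 (0.62 ± 0.24), the main salicylate synthesis gene, and PR1 (1.53 ± 1.23) did not pass. ICS1 passed without doxycycline replicate 3, at 0.83 (limma adjusted p = 0.025). PR1 passed without EtBr replicate 2, at 2.89 (limma adjusted p = 0.025). Intervals and floors cover counting error only.

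Ethylene genes were lower more often than higher. Here 4 of 20 measured members were higher, 10 were lower and 6 did not pass the test, with a median difference of -0.68. The synthase genes ACS11 and ACS2 moved apart. ACS11 had 106, 80.0 and 89.5 with EtBr, against 1328, 1368 and 1476 with doxycycline and 857, 297 and 497 in water, with a log2 difference of -3.91 ± 0.13 (limma adjusted p = 2.7e-05). ACS2 had 1844, 1738 and 2529 with EtBr, against 199, 129 and 253 with doxycycline and 86.3, 29.7 and 42.6 in water, with a log2 difference of 3.42 ± 0.27 (limma adjusted p = 0.00013). ACS7 differed by -2.34 ± 0.30, the signalling gene EIN2 by -1.01 ± 0.23 and the receptor gene ETR2 by 1.08 ± 0.07.

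Auxin genes were more often lower than higher. In the auxin list 5 of 25 measured members were higher, 12 were lower and 8 did not pass the test, with a median difference of -0.61. AUX1, the influx carrier gene, had 385, 339 and 231 with EtBr, against 1092, 1250.0 and 991 with doxycycline and 1500.0, 1210.2 and 1456 in water, with a log2 difference of -1.83 ± 0.20 (limma adjusted p = 0.00046). The efflux carrier genes PIN3, PIN4 and PIN7 differed by -1.73 ± 0.23, -1.10 ± 0.18 and -1.77 ± 0.21, whereas the transporter gene ABCB4 did not pass (-0.15 ± 0.16). Among early auxin genes IAA2 had 1214, 1382 and 1488 with EtBr, against 3041, 3172 and 3621 with doxycycline and 1708, 1384 and 1758 in water, with a log2 difference of -1.27 ± 0.11 (limma adjusted p = 0.00020), whereas IAA20 differed by 3.53 ± 0.35. IAA5 had 2 reads with doxycycline and a read ratio of 63.3 (95% counting interval 17.2 to 528), 42.1 without doxycycline replicate 2 and at least 28.2-fold without doxycycline replicate 3.

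Root hair genes were mostly higher with EtBr, and their sum lay between those of doxycycline and water. Of these 9 of 14 measured members were higher, 1 was lower and 4 did not pass the test, with a median difference of 2.60, or 3.38 with a pseudocount of 0.1 and 1.92 with 5. The list summed to 1294 to 1421 per EtBr library, against 908 to 1249 per doxycycline library and 1653 to 2223 per water library. RHS19, a peroxidase gene of root hairs, had 239, 331 and 346 in EtBr libraries, against 1.02, 0 and 3.06 in doxycycline libraries and 81.2, 92.0 and 208 in water libraries, with a log2 difference of 7.23 ± 0.53 (limma adjusted p = 0.00011). EXPA18, a root hair expansin gene, had 51 reads with EtBr and 0 with doxycycline, at least 15.4-fold higher, or at least 10.2-fold without doxycycline replicate 2. CSLD3, a wall synthase gene, was the lower member at -1.29 ± 0.13, and EXPA7 and RSL4, the factor gene that sets hair growth, differed by 4.30 ± 0.96 and 3.73 ± 0.46. Leaving out doxycycline replicate 2 and doxycycline replicate 3 in turn put the log2 difference of EXPA7 at 5.00 and 3.14, against 4.30 with all libraries.

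Other root markers did not follow. Of these 4 of 18 measured members were higher, 7 were lower and 7 did not pass the test, with a median difference of -0.43 and sums of 14363 to 33592 per EtBr library, against 6827 to 7798 per doxycycline library and 8843 to 19417 per water library. SHR and SCR, the GRAS factor genes of root patterning, were lower at -1.84 ± 0.17 and -0.76 ± 0.12. NRT2.1, a high-affinity nitrate transporter gene, had 169, 163 and 905 in EtBr libraries, against 4.09, 14.2 and 6.12 in doxycycline libraries and 363, 22.8 and 140.4 in water libraries, with a log2 difference of 5.16 ± 0.76 (limma adjusted p = 0.0015). Leaving out EtBr replicate 3 put the log2 difference of NRT2.1 at 4.35, against 5.16 with all libraries. Root markers higher numbered 2 without doxycycline replicate 2. Root markers lower numbered 4 without EtBr replicate 3 or doxycycline replicate 1.

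Of iron genes 7 of 19 measured members were higher, 4 were lower and 8 did not pass the test, with a median difference near 0. As a list they lay near the whole comparison, in which 32.4% of genes were higher and 24.8% lower. IRT1, which encodes the iron importer of the root surface, had 47.8, 17.3 and 8.95 in EtBr libraries, against 1.02, 0 and 0 in doxycycline libraries and 46.2, 45.5 and 268 in water libraries. It had 1 read with doxycycline, a ratio of reads of 75.1 (95% counting interval 13.1 to 3001), 39.2 without EtBr replicate 1, at least 16.7-fold without doxycycline replicate 1 and 49.9 without doxycycline replicate 2. The mean with EtBr lay below that in water. The log2 difference of IRT1 was 3.41 without EtBr replicate 1, against 4.03 with all libraries. FRO2, the ferric reductase gene, differed by 3.65 ± 0.52. BHLH100, an iron deficiency factor gene, had 33 reads with EtBr and 0 with doxycycline, at least 9.95-fold higher, or at least 6.62-fold without doxycycline replicate 2. The ferritin genes FER3 and FER4 were lower, at -1.10 ± 0.13 and -0.89 ± 0.10, and FIT, the root regulator of iron uptake, did not pass (-0.15 ± 0.31).

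Markers of seed and embryo had reads in EtBr libraries although the seedlings were 7 days old. Of these 6 of 7 measured members were higher, 0 were lower and 1 did not pass the test, and the 7 summed to 229.5 to 261 per EtBr library, against 10.2 to 13.2 per doxycycline library and 1.06 to 16.8 per water library. The list held 13 markers, but CRB, SESA1, SESA2, SESA3, OLEO1 and OLEO2 were not among the shared genes. EM6, a late embryogenesis gene, had 61.7, 71.8 and 98.5 in EtBr libraries, against 1.02, 1.01 and 4.08 in doxycycline libraries and 1.03, 9.89 and 0 in water libraries, with a log2 difference of 4.81 ± 0.47 (limma adjusted p = 0.00028). LEC1, an embryo regulator gene, differed by 3.77 ± 0.44. CRC, a cruciferin storage protein gene, had 79 reads with EtBr and 0 with doxycycline, at least 23.8-fold higher, or at least 15.8-fold without doxycycline replicate 2. EM1 had 2 reads with doxycycline and a ratio of 42.1 (95% counting interval 11.3 to 352), 28.0 without doxycycline replicate 2. Of 9 pollen markers only 2 were measured, of which BCP1 was higher at 4.04 ± 0.78 and ANX1 did not pass (0.56 ± 0.24). For BCP1 the log2 difference was 3.21 without doxycycline replicate 3, against 4.04 with all libraries. ANX1 passed without EtBr replicate 3, at 0.76 (limma adjusted p = 0.024). The part of other cell types in these differences was not tested.

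Genes of the circadian clock differed in both directions. Of clock genes 8 of 16 measured members were higher, 4 were lower and 4 did not pass the test, with a median difference of 0.69. Across all genes 32.4% were higher and 24.8% lower, so lower calls were about as frequent among clock genes. CCA1, a morning-expressed MYB gene, had 282, 331 and 441 in EtBr libraries, against 5.12, 17.2 and 9.17 in doxycycline libraries and 12.3, 3.96 and 6.38 in water libraries, with a log2 difference of 5.05 ± 0.43 (limma adjusted p = 0.00017). LHY, its partner, differed by 2.56 ± 0.29, LNK1 by 1.90 ± 0.13 and PRR9 by 2.35 ± 0.23. RVE4, a morning-expressed relative of CCA1 and LHY, was lower at -1.70 ± 0.10, as were TOC1, an evening gene, at -1.08 ± 0.10 and ELF3 at -1.52 ± 0.10. The times at which libraries were collected are not given in the labels. The evening element AATATCT stood in 9 of 16 clock promoters of 250 bases, against 2259 of 22542 promoters.

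Flavonoid genes differed in both directions. Of these 4 of 14 measured members were higher, 5 were lower and 5 did not pass the test, with a median difference of -0.97. Over all genes 32.4% were higher and 24.8% lower. CHS, the entry enzyme gene, had 441, 404 and 269.6 in EtBr libraries, against 2557, 3852 and 2861 in doxycycline libraries and 1350.0, 1174 and 2911 in water libraries, with a log2 difference of -3.06 ± 0.23 (limma adjusted p = 0.00012). TT5, the chalcone isomerase gene, differed by -2.53 ± 0.21 and FLS1 by -2.50 ± 0.31. TT8, a regulator gene of anthocyanin steps, was lower at -1.69 ± 0.42. TT8 missed the threshold without doxycycline replicate 1 or 2 (limma adjusted p = 0.051). DFR, an anthocyanin step gene, had 120 reads with EtBr and 0 with doxycycline, at least 36.2-fold higher, or at least 24.1-fold without doxycycline replicate 2, and UGT75C1 differed by 2.80 ± 0.42.

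Of senescence genes 5 of 12 measured members were higher, 3 were lower and 4 did not pass the test, with a median difference of 0.21. With so few members, these counts lie near the 32.4% higher and 24.8% lower of all genes. SAG13 had 1654, 1812 and 4275 in EtBr libraries, against 118, 170.2 and 240.5 in doxycycline libraries and 26.7, 0 and 22.3 in water libraries, with a log2 difference of 3.78 ± 0.42 (limma adjusted p = 0.00044). NAP, a NAC regulator gene of leaf senescence, differed by 1.90 ± 0.10, whereas WRKY53 differed by -1.26 ± 0.11 and ORE1 did not pass (0.00 ± 0.18). Senescence members lower numbered 5 without EtBr replicate 3.

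The largest rises among the shared genes came from genes almost silent with doxycycline. The rule took ASK13, DEP, AT4G33930, CYP96A5, AT3G55650, AOX1B, APUM19 and 3 loci without a gene type, with differences of 9.88 down to 8.33. ASK13 (AT3G60010, chromosome 3, 22162914 to 22163601), a SKP1-like gene of ubiquitin ligases, had 1265, 1448 and 1388 in EtBr libraries, against 0, 2.03 and 0 in doxycycline libraries and 0, 0.990 and 0 in water libraries. Its 2 doxycycline reads gave a read ratio of 2009.9 (95% counting interval 556 to 16602), at least 891-fold without doxycycline replicate 2. AT4G33930 (AT4G33930, chromosome 4, 16264269 to 16265420), described in the tables as a cupredoxin family gene, had 1969, 2082 and 2981 in EtBr libraries, against 3.07, 5.07 and 1.02 in doxycycline libraries and 2.06, 5.94 and 9.58 in water libraries, with a log2 difference of 9.29 ± 0.42 (limma adjusted p = 3.9e-05). AT3G55650, described as a pyruvate kinase gene, had 2 doxycycline reads and a ratio of 916 (95% counting interval 253 to 7566), at least 406-fold without doxycycline replicate 2. APUM19, a pumilio gene, had 1 such read and a ratio of 1206 (216 to 47671), 802 without doxycycline replicate 2 and at least 268-fold without doxycycline replicate 3. The deposited tables describe 1 of the 3 loci by an EN/SPM transposase domain and another by reverse transcriptase domains. Over the 24319 shared genes, 33 had 0 reads with doxycycline and at least 50 normalized reads in each EtBr library, and 0 genes had the reverse. Of these 33 genes, 0 were without reads in water, which may follow from the choice of shared genes and is not read as a result. Genes listed for EtBr alone had at most 1.09 normalized reads in any water library. Those genes, 246 of them with an EtBr mean of at least 50, lie outside the count of 33 and the ranking of rises. Leaving out doxycycline replicate 3 put the log2 difference of DEP at 10.30, against 9.52 with all libraries. Leaving out doxycycline replicate 1 put the log2 difference of CYP96A5 at 9.75, against 8.97 with all libraries.

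The largest falls were plastid transcripts apart from GPAT7 and FAR4, both genes of suberin, the lipid barrier of roots and wounds. The other 8 of the 10 were NDHI, MATK, RPOC1, NDHA, NDHG and PETD, described above with the plastid genome, and the transfer RNA genes TRNK and TRNG.1. GPAT7 (AT5G06090, chromosome 5, 1835047 to 1837037), a glycerol-phosphate acyltransferase gene, had 13.0, 11.8 and 0 in EtBr libraries, against 258, 319 and 226 in doxycycline libraries and 8.22, 4.95 and 16.0 in water libraries, with a log2 difference of -5.56 ± 1.00 (limma adjusted p = 0.0035). FAR4 (AT3G44540, chromosome 3, 16123426 to 16128030), a fatty acyl-CoA reductase gene, had 3.48, 9.09 and 3.98 in EtBr libraries, against 221, 289 and 196 in doxycycline libraries and 52.4, 54.4 and 67.0 in water libraries, with a log2 difference of -5.26 ± 0.39 (limma adjusted p = 0.00011). Both lay above water with doxycycline, and FAR4 lay below water with EtBr. GPAT7 differed by -6.22 without EtBr replicate 1, -6.15 without EtBr replicate 2 and -4.31 without EtBr replicate 3, against -5.56 with all libraries.

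Grouped by their level in water, genes with little RNA were more often higher with EtBr. Water entered the comparison through the joint size factors and through the choice of shared genes. The 4637 genes listed for EtBr alone were left out. Those with a mean of at least 50 with EtBr had a water mean of at most 1.09. The lowest quintile is thus a filtered set. Of the 4864 genes in the lowest quintile by mean water level, 47.9% were higher with EtBr and 3.13% lower, against 32.4% and 24.8% of all genes. Of the 4864 genes in the highest quintile, 20.2% were higher and 46.5% lower. Grouped instead by the mean of the 6 compared libraries, 34.05% of the lowest quintile and 31.3% of the highest were higher. The contrast in higher calls was thus nearly gone, but that in lower calls stayed, at 5.04% and 35.4%. In this grouping the median difference was still 1.00 in the lowest quintile, against -0.02 in the highest. By water level, the median difference was 1.67 in the lowest quintile and -0.32 in the highest. Genes of the highest quintile held 69.97% of EtBr reads and 78.2% of doxycycline reads. The power of the test differs with level, and these shares are not corrected for it.

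**Figure D5:**
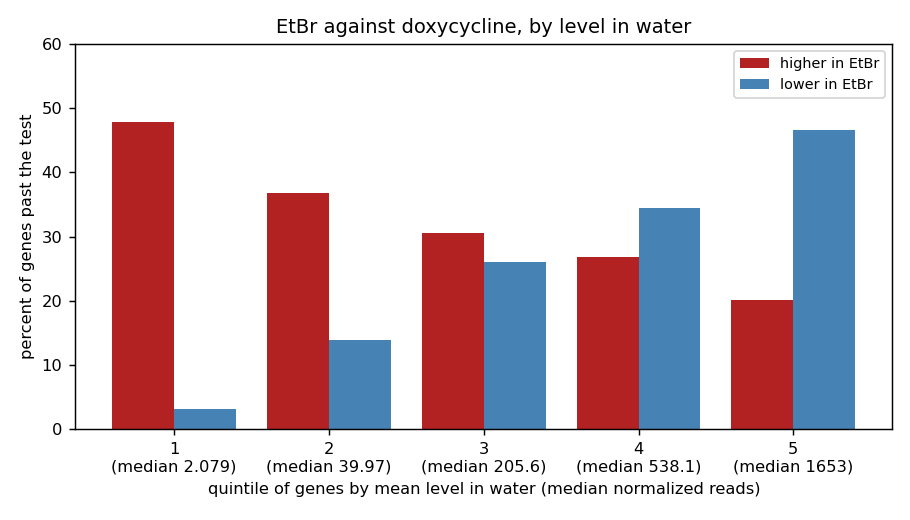
Percent of genes higher (red) or lower (blue) with EtBr than with doxycycline in each quintile (5 equal groups) of genes by mean level in water, with the median water level of each quintile in normalized reads. Higher calls fall from 47.9% in the lowest quintile to 20.2% in the highest, while lower calls run from 3.13% to 46.5%.

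Small nuclear RNA genes, which poly(A) selection would largely miss, were mostly higher with EtBr, at 12 of 15 (80.0%) with 0 lower. Of 136 small nucleolar RNA genes 37.5% were higher, close to the 32.4% of all genes, and 2.21% lower, against 24.8%. Of 62 transfer RNA genes, which include those of organelles, 1.61% were higher and 22.6% lower. Small nuclear RNA genes took 0.00863% of EtBr reads, against 0.000191% of doxycycline reads. The sources used here do not give how RNA was selected. Protein-coding genes, 22664 in number, were higher in 33.2% and lower in 25.7%.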

How the data were processed

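RNA sequencing of 9 whole-seedling libraries (3 EtBr, 3 doxycycline, 3 water) was used, made from TRIzol RNA with a NEBNext Ultra kit, per the labels' protocols. Per the submitters' processing notes, which state no roles, the tools were DESeq 1.18.0, HTSeq 0.6.1, TopHat2 2.0.12, Bowtie2 2.2.3 and CASAVA 1.8. The sources used here name no genome build, and coordinates were taken as deposited. Among the 29071 gene identifiers, 28255 matched RefSeq genes of TAIR10.1, and 99.98% of those had the same start and end.

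The authors deposited 1 table per compound against water, with 24434 genes for doxycycline and 28956 for EtBr. The deposited signal columns hold reads over a size factor per library, going by the steps between values, and 100.0% of values came out as whole reads within 0.001. This check is weak for 4 of the 12 columns, whose step lies near 1. Log2 fold changes and p-values deposited by the authors were not used. Reads of the 24319 shared genes were scaled together by size factors (median ratio). EtBr was tested against doxycycline in limma 3.58.1 (R 4.3.3) on log2(normalized reads + 1) of the 6 libraries, with trended variance, no block, and Benjamini-Hochberg adjustment over all shared genes, called under 0.05. Alternatives were DESeq2 1.42.0 and edgeR 4.0.16 on whole reads, other scalings, pseudocounts of 0.1 and 5, a minimum mean of 10, stricter thresholds, a replicate block and leaving out each library. The fits were tested on simulated data. Replicates differed by a chi-square of at least 8.62 per degree of freedom, so none was counted as a copy. EtBr replicate 3 stood further from EtBr replicates 1 and 2 (63.3 and 55.0) than these did from each other (8.62). Doxycycline pairs reached 22.2 and water pairs 46.9.

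The comparison, its 31 gene lists and the rule for named genes were chosen with earlier results of these data known. The rule took the 10 largest rises and 10 largest falls (a mean of 50 or more and a read in each group), the 3 list members of smallest adjusted p in each list, and 24 genes by name. A gene that these steps would name may be left unnamed, as not reported here. Other list members and the gene types were chosen after their values were seen. Depth differed little between libraries, and counting intervals (95%) cover counting error only.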

Additional observations from a re-analysis of the deposited data

Results flagged for a closer look

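The deposited EtBr table lists 4637 genes that the doxycycline table does not, and 246 of them had a mean of at least 50 normalized reads with EtBr. They lie outside the comparison because they have no doxycycline value here. None of the 246 had a water mean above 1.09. Of the 115 genes listed for doxycycline alone, 0 reached a mean of 50. AT3G60020, described as SK5 in the deposited table, had 2102, 1901 and 1535 normalized reads in the EtBr libraries and a mean of 0 in water.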

How the results depend on the processing

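The counts of genes higher (7890) and lower (6038) stayed within 1.5 times under every alternative run but 1: with at least a 2-fold difference 5260 were higher and 3378 lower. Without 1 library in turn, 6789 to 7999 genes were higher and 4904 to 6270 lower. Both of the highest counts came without EtBr replicate 3 and exceeded those with all libraries. No gene was called in the opposite direction under any alternative. EdgeR called 6801 higher and 6544 lower of 21232 genes, and DESeq2 7604 and 6237. Library totals gave 8915 and 5002. The median of seed markers was 5.45 at a pseudocount of 0.1 and 2.54 at 5. Among named genes 7 were called no longer when a 2-fold difference was required, AOX1A (0.95) among them.

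Same-numbered EtBr and doxycycline libraries deviated together weakly (correlations of 0.0488, 0.104 and 0.207), and EtBr replicate 1 was closest to doxycycline replicate 2 (0.135), so the numbers were not taken to pair the samples. With a replicate block 7885 genes were higher and 5994 lower.

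UGT74E2, PDC1 and GLK1, with differences near 0, changed sign without passing the test, and the cause was not tested. UGT74E2 stood at 0.089 with library totals, 0.092 with totals that left out organelle and ribosomal RNA genes, and -0.20 to 0.12 without 1 library in turn. PDC1 stood at 0.13 and 0.14 with these totals and -0.091 to 0.11 without 1 library. GLK1 stood at 0.10 with both totals and -0.17 to 0.087 without 1 library. Few reads limit the mitochondrial genome list. Its median was 1.84 among members with a mean of at least 10, a filter that members can pass through EtBr reads alone.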
